A study of Homo sapiens with 4 samples.

Results

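The p53 and growth arrest targets CDKN1A, MDM2, GDF15, GADD45A, GADD45B, BTG2, SESN1, TP53I3, FAS and PLK3 were followed in Huh7 cells given ISL1. The 10 genes were taken by symbol out of 19782 listed in the deposited tables. Of these 10 genes, 9 were listed in all 4 tables and passed the filter on low values (at least 1 RPKM in at least 2 libraries), and FAS was listed only in the replicate 2 tables, at a very low level. GDF15, GADD45A, GADD45B and BTG2 stood over 2-fold lower in RPKM with ISL1 in the first pair of libraries and over 2-fold higher with ISL1 in the second. CDKN1A stood lower with ISL1 in both pairs and TP53I3 higher in both. SESN1 also stood higher in both, but its first ratio came from 17 against 12 reads and its interval included no difference. MDM2 had ratios of ISL1 to blank of 0.969 and 1.32. None of the differences passed the test over both pairs.

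p53 is a transcription factor that is stabilised by DNA damage and other stress and switches on genes for cell cycle arrest, repair, metabolism and cell death. CDKN1A encodes p21, the inhibitor of cyclin-dependent kinases that carries much of the arrest in G1, and MDM2 encodes the ubiquitin ligase that degrades p53 and closes a feedback loop. Several of these genes also answer to other signals: GDF15 and GADD45A to the ATF4 stress response, GADD45B to NF-kB, and BTG2 and PLK3 to growth factors and serum. Huh7 is a human hepatoma line.

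RNA sequencing was done on 4 libraries of Huh7 cells at passage 3, with 2 from cells given lentivirus for ISL1 (a transcription factor of the LIM-homeodomain family) and 2 from cells given blank lentivirus. The comparison asks which transcripts differ when ISL1 is expressed. The library titled ISL2-2 was placed with ISL1, since no virus other than ISL1 and blank is named for the series. ISL1 stood at 8.22 RPKM in the first ISL1 library against 0.0454 in the first blank library, and at 1801 RPKM in the second ISL1 library, with the second blank library listed at 0. ISL2 stood at 2.08 against 4.57 RPKM in the first pair and at 13.2 against 3.23 in the second. The sources used here do not say that the duplicates were separate cultures, so a p-value covers the spread between these libraries only and that spread may be technical.

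RPKM divides a gene's reads by the length of its transcript and by the library's mapped reads. The steps between RPKM values gave depths of 37134267 and 32289510 reads for the first ISL1 and blank libraries and 29429964 and 34274524 for the second, and the whole number of reads behind each value. A pair is the ISL1 and the blank library with the same replicate number. Hepatocyte markers were present: 10 of 11 reached 1 RPKM in each replicate 1 library and 11 of 11 in each replicate 2 library. The hepatocyte factor HNF4A, however, stood at 0.0335 against 0.0001 RPKM in the first pair and at 38.0 against 96.7 in the second. The summed level of the hepatocyte markers was 23123 against 22557 RPKM in the first pair and 12218 against 25908 in the second. The second pair also held transcripts of other cell types. The 5 erythroid markers summed to 1.399 RPKM with ISL1 and 1002 with blank virus there, with HBB listed at 0 against 398, and the 5 cardiac markers to 48.4 against 1.23 RPKM. In the first pair 1 of the erythroid markers was listed, at 0.0001 against 0.0495 RPKM, and 2 of the cardiac markers, summing to 0.829 against 0.736. Leukocyte markers summed to 50.3 against 53.6 RPKM and 95.6 against 113.0, stromal markers to 3.20 against 2.29 and 11.5 against 6.88, and endothelial markers to 2.47 against 8.61 and 1.46 against 10.6. In bulk RNA, fewer cells of a type and less RNA per cell cannot be told apart. The part of these transcripts in the values of the second pair was not tested.

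The start regions of 4 of the genes are shown first, because MDM2 holds the textbook p53 response elements and GDF15, GADD45B and BTG2 differed most between the pairs among the genes with a window. The RefSeq table (GRCh38.p14) had windows of 300 bases, from 250 before to 50 after a transcript start, for 9 of the 10 genes and 16 windows in all; GADD45A was not among them. The expression tables were made on hg19, so these coordinates belong only to the sequences. Capitals mark matches on either strand to 7 motifs. They are the p53 full site (20 bases in a row, up to 3 mismatches), TATAAA (the TATA box), CCAAT (bound by NF-Y), TGANTCA (AP-1), TGACGTCA (the cyclic AMP response element), TGATGNAA (the core of a C/EBP and ATF composite element) and CACGTG (the E-box).
MDM2, second promoter, chr12:68808767-68809066, plus strand: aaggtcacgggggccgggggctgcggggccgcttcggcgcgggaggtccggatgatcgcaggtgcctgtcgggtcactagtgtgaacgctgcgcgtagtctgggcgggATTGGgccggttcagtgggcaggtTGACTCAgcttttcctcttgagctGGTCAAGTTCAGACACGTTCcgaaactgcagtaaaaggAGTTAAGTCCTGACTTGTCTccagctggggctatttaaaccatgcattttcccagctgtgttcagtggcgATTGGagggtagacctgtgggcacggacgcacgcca
GDF15, chr19:18385908-18386207, plus strand: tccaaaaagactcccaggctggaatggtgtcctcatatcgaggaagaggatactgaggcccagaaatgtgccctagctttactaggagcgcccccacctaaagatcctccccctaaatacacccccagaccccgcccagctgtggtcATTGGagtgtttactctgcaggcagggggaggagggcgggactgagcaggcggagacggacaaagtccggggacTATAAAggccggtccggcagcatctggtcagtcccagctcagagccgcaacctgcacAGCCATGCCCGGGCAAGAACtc
GADD45B, chr19:2475877-2476176, plus strand: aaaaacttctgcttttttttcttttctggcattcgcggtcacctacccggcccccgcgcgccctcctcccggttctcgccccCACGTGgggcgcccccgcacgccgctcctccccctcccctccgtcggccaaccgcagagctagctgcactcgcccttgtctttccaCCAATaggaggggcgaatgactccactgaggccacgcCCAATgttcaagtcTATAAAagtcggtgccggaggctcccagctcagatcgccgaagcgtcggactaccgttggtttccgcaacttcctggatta
BTG2, chr1:203305269-203305568, plus strand: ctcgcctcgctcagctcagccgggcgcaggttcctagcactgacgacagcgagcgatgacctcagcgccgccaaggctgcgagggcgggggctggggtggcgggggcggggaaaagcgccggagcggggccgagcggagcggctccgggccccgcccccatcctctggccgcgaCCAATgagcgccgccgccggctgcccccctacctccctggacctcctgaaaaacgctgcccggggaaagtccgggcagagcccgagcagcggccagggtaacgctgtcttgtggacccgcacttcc

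The MDM2 window held 2 p53 full sites, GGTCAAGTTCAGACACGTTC with 2 mismatches and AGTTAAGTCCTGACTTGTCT with 3, and a TGANTCA match upstream of them. The GDF15 window held a full site with 3 mismatches just after the transcript start and a TATAAA match before it. In the GADD45B window the TATA box, the E-box and the NF-Y motif were matched and no p53 full site was. The BTG2 window held CCAAT only. Elsewhere a full site was matched at a FAS start (chr10:88991181-88991480, plus strand), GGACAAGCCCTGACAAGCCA with 2 mismatches, and at a SESN1 start (chr6:109008939-109009238, minus strand), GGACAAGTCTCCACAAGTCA with 3. No full site was matched in the CDKN1A, TP53I3 and PLK3 windows; the PLK3 window held TGATGNAA. In all, 5 of the 16 windows, from 4 genes, held a p53 full site (MDM2 in overlapping windows), against 5.20% of all 35116 RefSeq windows. The shares for the other motifs were 11.5% for TATAAA, 34.6% for CCAAT, 7.71% for TGANTCA, 1.85% for TGACGTCA, 3.62% for TGATGNAA and 7.26% for CACGTG. The matches describe these letters and do not show binding.

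Among the arrest genes CDKN1A stood lower with ISL1 in both pairs. It was at 0.236 RPKM in the first ISL1 library against 1.10 in the first blank library, and at 20.2 against 39.8 RPKM in the second pair. The values rest on 20 against 81 reads and on 1262 against 2892 reads. The ratio of ISL1 to blank was 0.215 (95% counting interval 0.125 to 0.354) in the first pair and 0.508 (0.475 to 0.543) in the second. These intervals come from an exact binomial interval on the reads and cover counting error only, not the spread between cultures. The differences were -0.76 and -0.94 as log2(RPKM + 1), a scale that makes the differences of low genes look smaller. With a pseudocount of 0.1 RPKM the first difference was -1.84 and with 5 RPKM -0.22. CDKN1A was the only tested gene of the 10 that stood lower in both pairs, against 19.1% of all genes tested.

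GADD45A, which encodes a small stress protein that can block entry into mitosis, stood at 0.597 RPKM with ISL1 against 3.37 with blank virus in the first pair and at 152.5 against 21.5 RPKM in the second. The reads were 31 against 152 and 5816 against 957, and the ratios 0.177 (0.116 to 0.262) and 7.08 (6.61 to 7.59). GADD45A thus stood lower with ISL1 in the first pair and higher in the second.

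GADD45B, its paralog, stood at 6.73 against 17.5 RPKM in the first pair and at 212.8 against 22.5 RPKM in the second. The ratios were 0.384 (0.338 to 0.436) and 9.45 (8.87 to 10.08), from 348 against 788 and 8725 against 1075 reads. Both blank libraries lay between the ISL1 libraries. GADD45G, the other paralog, was at 0.718 against 0.513 RPKM and at 42.0 against 3.54 RPKM, named after its values were seen.

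BTG2, an antiproliferative cofactor of mRNA deadenylation, stood at 3.95 against 18.8 RPKM in the first pair and at 22.0 against 10.8 RPKM in the second. The ratios were 0.210 (0.188 to 0.235) and 2.03 (1.88 to 2.20), from 399 against 1651 and 1760 against 1009 reads. PLK3, a stress-responsive polo-like kinase, was low in every library, at 1.03 against 1.65 RPKM and 2.67 against 1.18 RPKM. Its ratios were 0.628 (0.474 to 0.829) and 2.26 (1.75 to 2.92), from 91 against 126 and 186 against 96 reads, so its direction also differed between the pairs.

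**Figure D1:**
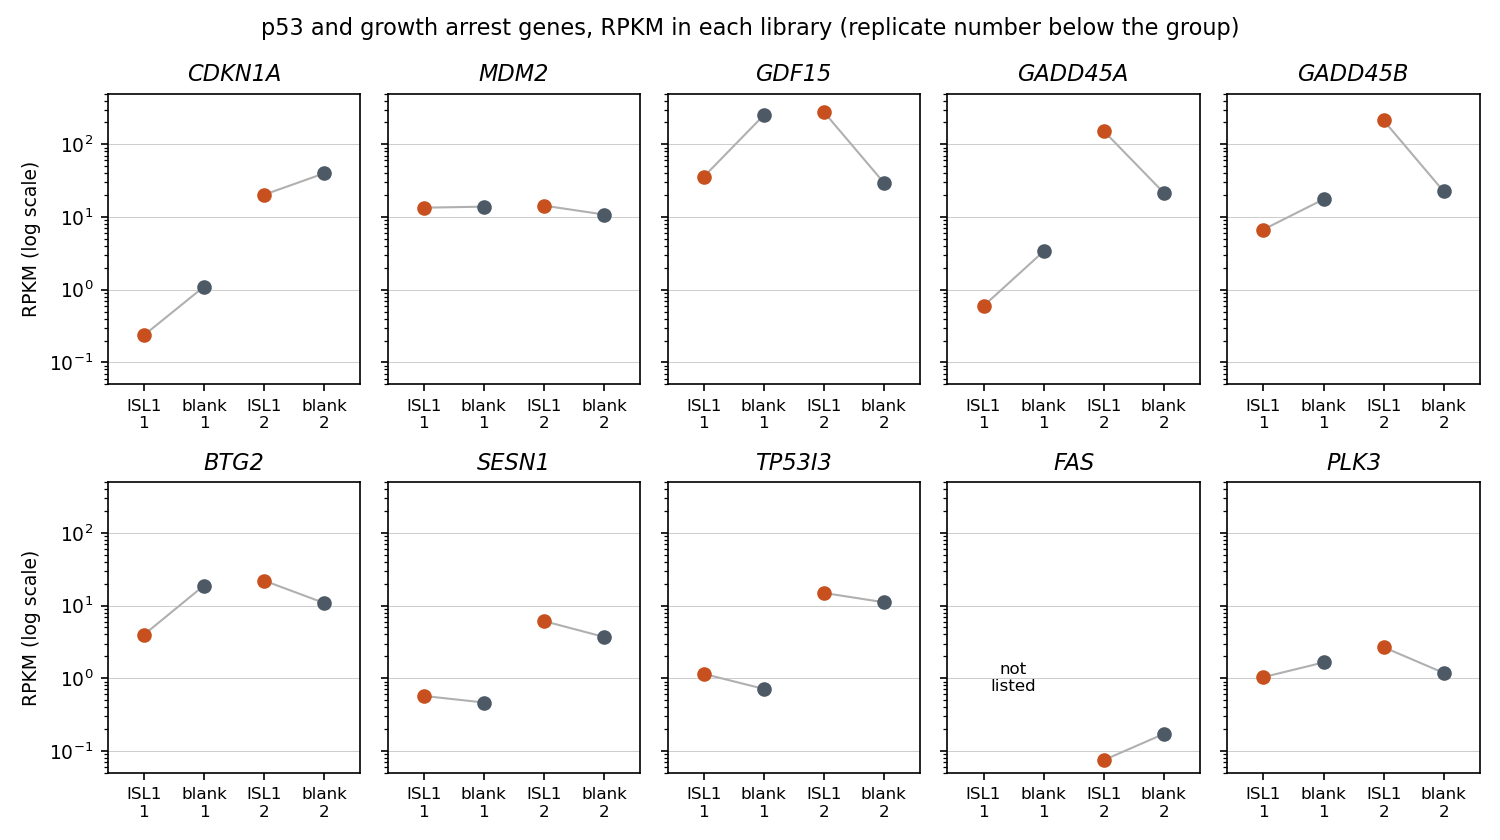
RPKM of the 10 p53 and growth arrest genes in each library, on a log scale, with a panel per gene. Orange points are ISL1 libraries, grey points blank libraries, and a line joins the libraries of a replicate number. GDF15, GADD45A, GADD45B, BTG2 and PLK3 slope in opposite directions in the 2 pairs, CDKN1A lies lower with ISL1 in both, and FAS was listed only in the replicate 2 tables.

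MDM2, the feedback regulator, stood at 13.4 against 13.9 RPKM in the first pair and at 14.3 against 10.8 RPKM in the second. The ratios were 0.969 (0.925 to 1.02) and 1.32 (1.26 to 1.395), from 3729 against 3346 and 3109 against 2733 reads, and the first interval includes no difference.

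SESN1, a sestrin that restrains mTORC1 under stress, stood at 0.570 against 0.463 RPKM in the first pair and at 6.10 against 3.69 RPKM in the second. The first ratio, 1.23, came from 17 against 12 reads and had an interval of 0.554 to 2.83, within which no difference was detectable. The second was 1.65 (1.44 to 1.90). TP53I3, also called PIG3, a quinone oxidoreductase linked to p53-dependent death, stood at 1.15 against 0.713 RPKM and at 14.9 against 11.1 RPKM. Its ratios were 1.61 (1.12 to 2.35) and 1.34 (1.16 to 1.55), the same direction in both pairs. Higher in both pairs were 2 of the 9 tested genes, against 23.1% of all genes tested.

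GDF15, a secreted stress cytokine of the TGF-beta superfamily, had the widest swing. It stood at 35.7 RPKM with ISL1 against 250.8 with blank virus in the first pair, and at 279.1 against 29.6 RPKM in the second. The ratios were 0.142 (0.135 to 0.150) and 9.43 (8.89 to 10.01), from 1617 against 9879 and 10021 against 1238 reads. The first ISL1 library thus lay close to the second blank library, and the second ISL1 library close to the first blank library. Among the 11085 genes tested, only 7 had a lower difference in the first pair and only 5 a higher difference in the second. GADD45B and GADD45A had 6 and 15 genes above them in the second pair.

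FAS, the death receptor CD95, stood at 0.0747 RPKM in the second ISL1 library against 0.171 in the second blank library, which is 3 against 8 reads. The ratio was 0.437 with an interval of 0.0746 to 1.82, so no difference was detectable at this depth. FAS did not enter the test.

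**Figure D2:**
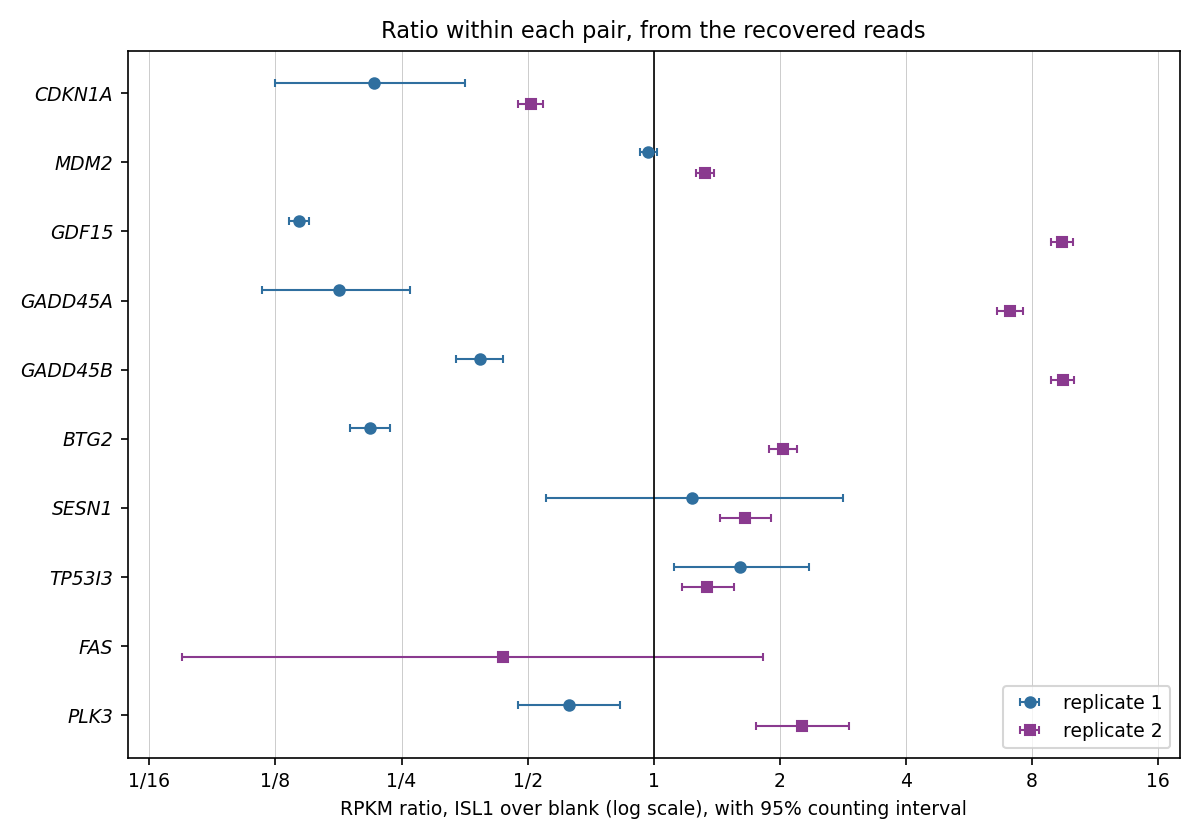
Ratio of ISL1 to blank RPKM within each pair (log axis), computed from the recovered reads, with 95% exact counting intervals. Circles are replicate 1 and squares replicate 2. GDF15 lies at 0.142 and 9.43, GADD45B at 0.384 and 9.45 and GADD45A at 0.177 and 7.08, while both ratios of CDKN1A lie below 1 and both of TP53I3 above it.

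RPKM divides by transcript length, but the length used for a gene with several transcripts was not the same in all tables. The order of the genes is therefore given as deposited and within a library. Read numbers differed too for some genes. CDKN1A had 20 and 81 reads in the first ISL1 and blank libraries and 1262 and 2892 in the second ones. Its lengths there were 2284 and 2119 bases. MDM2 had 3729 and 3346 reads in the first libraries and 3109 and 2733 in the second ones. The part of the counting in the order within a library was not tested. GDF15 had the highest RPKM of the 10 in both ISL1 libraries and in the first blank library, and CDKN1A in the second blank library. There GDF15 came second, at 29.6 RPKM, followed by GADD45B at 22.5 and GADD45A at 21.5. BTG2 and MDM2 were neighbours in that library at 10.83 and 10.82 RPKM. GDF15, whose length was the same in all tables, differed between the blank libraries by -3.04 on the log2(RPKM + 1) scale (second minus first), so these ranks describe single libraries.

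The replicate 1 and replicate 2 tables differed in how genes were counted. The recovered transcript length was the same in both for 4 of the 9 genes, GDF15 (1220 bases), GADD45B (1393), BTG2 (2718) and PLK3 (2369), each with 1 RefSeq transcript. It differed for CDKN1A (2284 in replicate 1 and 2119 in replicate 2), GADD45A (1398 and 1296), MDM2 (7472 and 7369), SESN1 (803 and 2740) and TP53I3 (2042 and 961), which have 3 to 12 RefSeq transcripts. Reads and lengths are the smallest whole numbers that give the deposited values, and the true ones could be whole multiples of them. Of these 5 genes, CDKN1A, GADD45A, SESN1 and TP53I3 stood higher in the second blank library than in the first, by 1.68 to 4.28 on the log2 scale, and MDM2 stood lower, by -0.33. Over all genes tested the median of that difference was 0.96. A level in replicate 1 is therefore not comparable with one in replicate 2 for these genes. The part of the counting in the differences within a pair was not tested.

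Counted over the 9 tested genes, 7 stood lower with ISL1 in the first pair (50.6% of all genes tested did) and 8 stood higher in the second (54.6%). Lower in the first and higher in the second pair were 6, against 31.5% of all genes tested, and none went the other way, against 26.3%. At least 2-fold lower on the log2(RPKM + 1) scale in the first pair were 4 (GDF15, BTG2, GADD45A and GADD45B), against 2.36%, and at least 2-fold higher in the second were 3 (GDF15, GADD45B and GADD45A), against 6.49%. These 3 genes met both criteria, as did 0.65% of all genes tested. No gene of the 9 was 2-fold higher in the first pair (1.71%) or 2-fold lower in the second (3.68%). Over the 9 genes the median was -0.76 for the first pair and 0.75 for the second, beside medians of -0.00 and 0.06 over all genes tested. These medians of the 9 genes depended on the pseudocount, at -1.37 and 1.02 with 0.1 RPKM and at -0.22 and 0.35 with 5 RPKM. With a minimum of 5 RPKM in 2 libraries, which 7 of the genes met, the median for the first pair was -1.26.

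**Figure D3:**
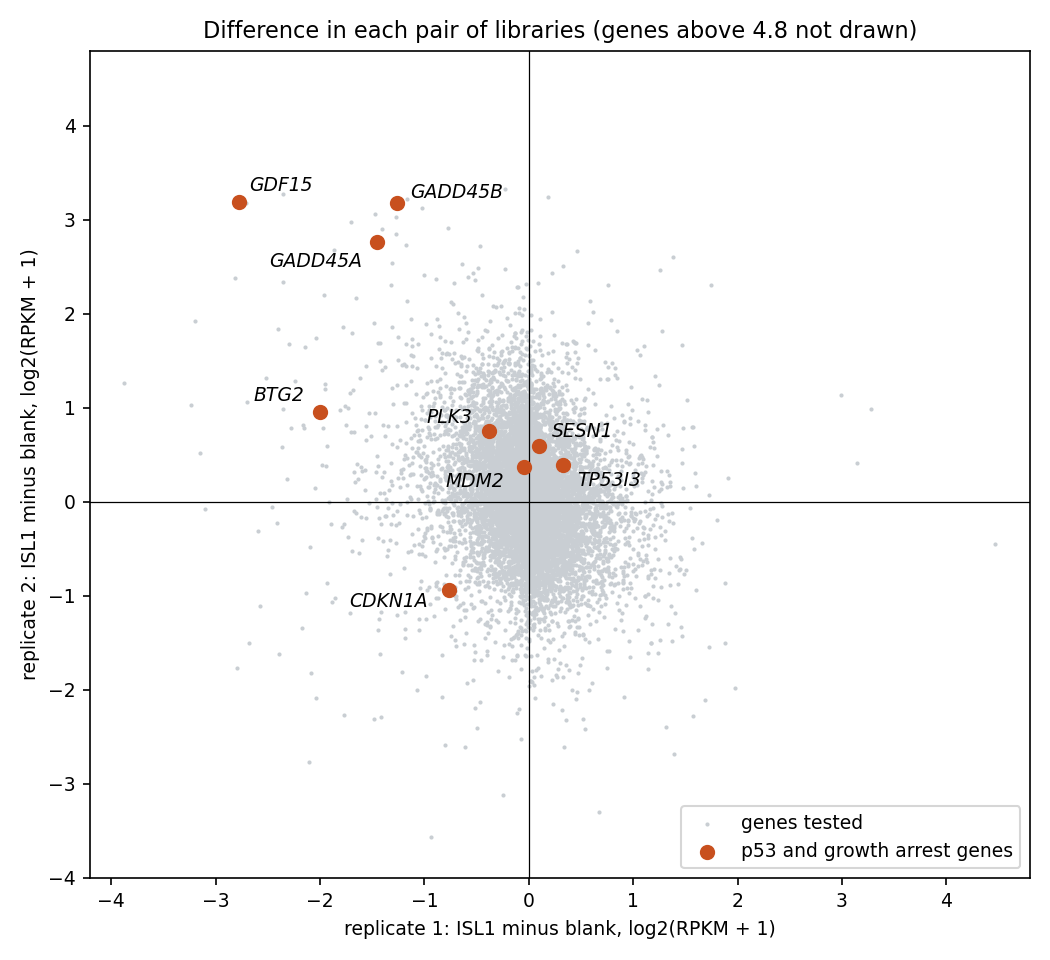
Difference between ISL1 and blank on the log2(RPKM + 1) scale in replicate 1 (horizontal) and replicate 2 (vertical). Grey points are the 11085 genes tested, except ISL1, which lies above the plotted range, and orange points are the 9 tested genes of the group. GDF15, GADD45B, GADD45A and BTG2 lie toward the upper left, and CDKN1A lies at the lower left.

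With both pairs together no gene passed limma at an adjusted p of 0.05 (0 of 11085, or 0%), and 15 genes had an unadjusted p below 0.05, none of them among the 9. The shift between replicate numbers stays in the spread of this fit, so the count of 0 does not show that genes did not differ. The log2 fold changes were -0.85 (SE 2.29) for CDKN1A, 0.21 (SE 1.59) for GDF15, 0.66 (SE 2.64) for GADD45A and 0.96 (SE 1.82) for GADD45B, each with a limma adjusted p of 1.00 and n = 2 per group. They were -0.52 (SE 0.97) for BTG2, 0.18 (SE 0.69) for PLK3, 0.17 (SE 0.43) for MDM2, 0.35 (SE 1.21) for SESN1 and 0.36 (SE 1.64) for TP53I3, again with limma adjusted p = 1.00. For GDF15, GADD45B, BTG2 and PLK3, whose lengths were the same in all tables, the ISL1 and blank libraries overlapped. Of all genes tested, with levels taken as deposited, 5.52% had both ISL1 libraries above both blank libraries and 5.08% had both below. For the other 5 genes overlap was not read, since their levels are not comparable between replicate numbers. Leaving out 1 library reversed the direction of 8 of the 9 pooled values, and MDM2 kept its sign, at 0.00 to 0.33. With 1 library missing the unpaired fit sets unequal numbers of replicate 1 and replicate 2 libraries against each other, so the shift between replicate numbers enters these values. CDKN1A and TP53I3 had 1 sign in both pairs, and their reversals do not show an unstable direction. The shared sign does not establish a direction either, since each pair has 1 library per group and the intervals cover counting error only. SESN1 also had 1 sign in both pairs, but its first ratio rested on 17 against 12 reads, with an interval of 0.554 to 2.83. Its direction in the first pair is therefore not established. Without the first ISL1 library CDKN1A came to 1.20 and BTG2 to 0.59, and without the second GDF15 came to -1.26, GADD45A to -2.64, GADD45B to -1.43, SESN1 to -0.74, TP53I3 to -1.08 and PLK3 to -0.24. Without the first blank library GADD45A came to -0.53, SESN1 to -0.49 and TP53I3 to -1.05, and without the second CDKN1A came to 1.29 and GDF15 to -1.31. An exact permutation test of 2 libraries against 2 cannot give a two-sided p below 0.333.

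Of 37 other p53 targets, 33 were tested, and none passed limma. This list and the lists below were chosen with earlier results of these data known. In the first pair 22 stood lower (50.6% of all genes tested did) and 11 higher (49.4%), with a median of -0.13. In the second pair 20 stood higher (54.6%) and 13 lower (45.4%), with a median of 0.35. Lower in the first and higher in the second pair were 17 of 33, against 31.5% of all genes tested, and 8 went the other way, against 26.3%. Some first-pair directions here rest on few reads with ISL1 against blank virus. APAF1 had 1 against 0, FDXR 10 against 3 and ZMAT3 14 against 6. On the log2(RPKM + 1) scale PMAIP1, SESN2 and BTG1 were at least 2-fold lower in the first pair, against 2.36% of all genes tested. At least 2-fold higher in the second were PLK2, PMAIP1, BBC3 and TP53INP1, against 6.49%. PMAIP1, which encodes the BH3-only death protein NOXA, stood at 9.03 against 24.0 RPKM and at 41.1 against 7.496 RPKM. SESN2, a sestrin, stood at 5.53 against 28.2 and at 22.8 against 12.5 RPKM. BTG1, an antiproliferative relative of BTG2, stood at 10.03 against 27.2 and at 51.4 against 29.0 RPKM. TNFRSF10B, a receptor for the death ligand TRAIL, stood at 1.34 against 3.03 and at 82.4 against 42.9 RPKM. BBC3, which encodes PUMA and is named here after its values were seen, stood at 26.6 against 7.87 RPKM in the second pair; its first pair rested on 1 against 25 reads, a ratio of 0.0348 (0.000847 to 0.212). BAX, the pore-forming death effector, likewise named with its values known, lay close to its blank value in both pairs, at 3.74 against 4.46 and 87.5 against 99.3 RPKM.

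**Figure D4:**
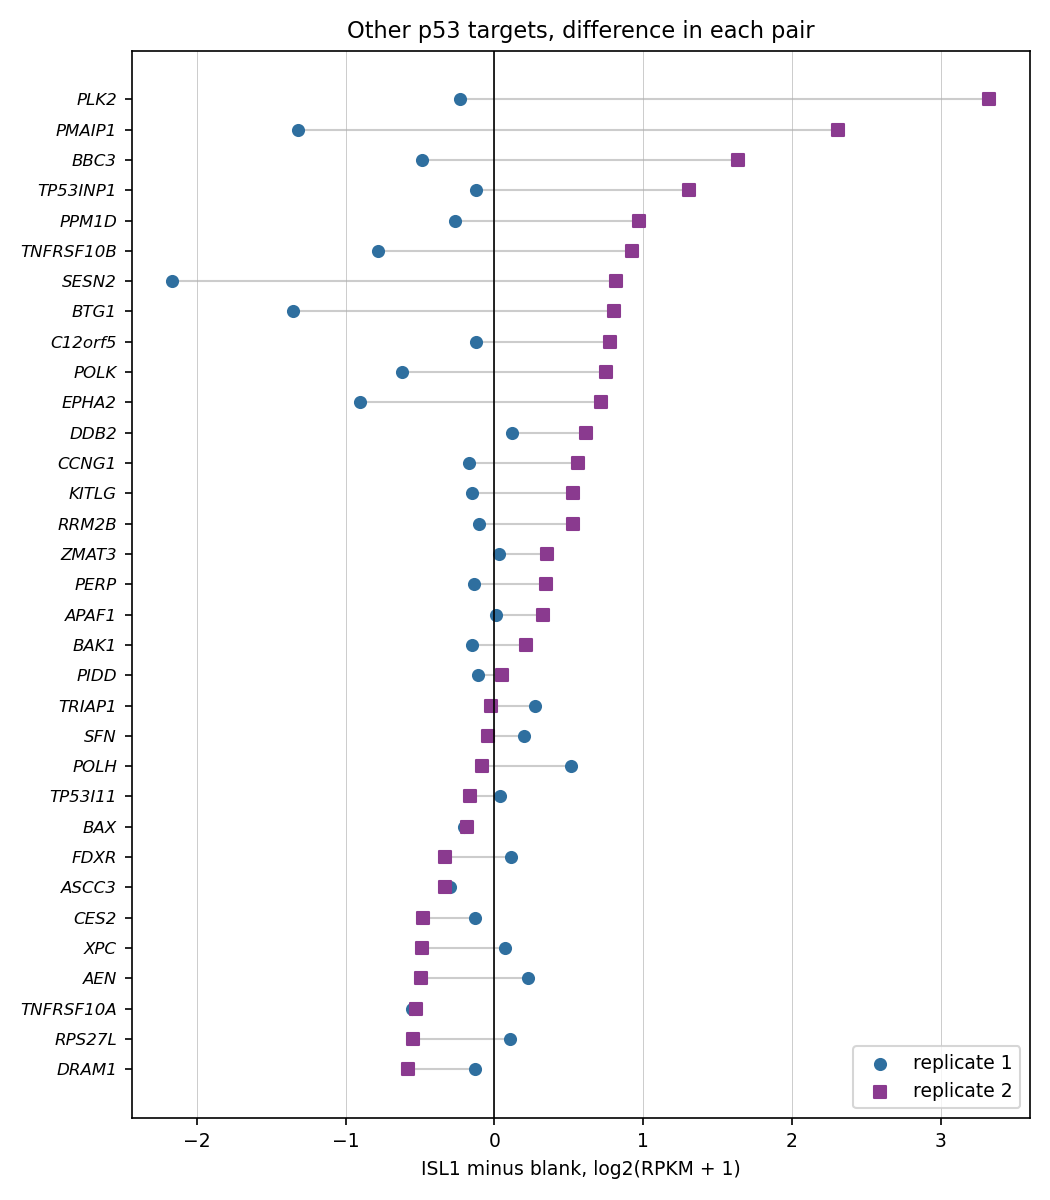
Difference between ISL1 and blank on the log2(RPKM + 1) scale for the 33 other p53 targets tested, ordered by the replicate 2 difference. Circles are replicate 1 and squares replicate 2. PMAIP1 lies at -1.32 and 2.31 and SESN2 at -2.16 and 0.82, while BAX lies at -0.20 and -0.18.

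Paralogs of the 10 genes numbered 13, all tested. Of them 9 stood lower in the first pair (50.6% of all genes tested did) and 12 higher in the second (54.6%), with medians of -0.04 and 0.83. In the first pair CDKN1C had 0 against 1 read, PLK4 1 against 1 and TOB1 14 against 12, so their directions there are not established. BTG1, SESN2 and PLK2 are also among the other p53 targets. PLK1, the mitotic polo-like kinase, stood at 49.4 against 24.4 and at 76.0 against 38.1 RPKM, higher in both pairs. BTG3 stood at 0.979 against 1.84 and at 43.9 against 20.7 RPKM. PLK2, named after its values were seen, stood at 0.0661 against 0.250 RPKM in the first pair, from 7 against 23 reads, and at 24.4 against 1.53 RPKM in the second.

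Of the regulators of the pathway, 4 are given. The log2 difference of EP300, a p53 acetyltransferase, was -0.46 in pair 1 and -0.53 in pair 2. That of USP7, a deubiquitinase of MDM2 and p53, was 0.38 and -0.36. The checkpoint kinases CHEK1 and CHEK2 differed by 0.38 and 0.08 in the first pair and by 0.10 and 0.16 in the second.

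Genes of other pathways that can induce some of the 10 genes were counted too. Of 11 such genes 10 were tested. All 10 stood lower in the first pair and higher in the second, against 31.5% of all genes tested, with medians of -1.19 and 1.88. The list was chosen with earlier results of these data known, so this count is not independent of how the genes were picked. TRIB3, a target of ATF4 and CHOP, stood at 35.5 against 149.0 and at 92.6 against 27.0 RPKM. DDIT3, which encodes CHOP, stood at 2.92 against 11.8 and at 321.7 against 39.9 RPKM. NFKBIA, the NF-kB inhibitor and target, stood at 19.6 against 65.6 and at 93.2 against 26.1 RPKM, and JUN, a subunit of AP-1, at 28.2 against 69.6 and at 150.9 against 20.1 RPKM. Their part in the values of GDF15, GADD45A, GADD45B and BTG2 was not tested.

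Among 13 cell cycle genes, all tested, 11 stood higher in the first pair (49.4% of all genes tested did) and 10 lower in the second (45.4%), with medians of 0.65 and -0.86. Higher in the first and lower in the second pair were 8, against 26.3% of all genes tested. The cyclin genes CCNA2, CCNE1 and CCNE2 stood higher in both pairs (23.1%), and CCND1 and CDK4 lower in both (19.1%), all 5 named with their values known. CDC6, which loads the replicative helicase, stood at 68.2 against 30.8 RPKM and at 12.01 against 29.2 RPKM. E2F1 stood at 40.5 against 22.1 and at 13.2 against 28.9 RPKM, MCM2 at 1.74 against 0.695 and 29.4 against 64.5, and CDK2 at 3.54 against 1.91 and 27.5 against 50.9. CCNA2 stood at 60.5 against 24.5 RPKM and at 41.97 against 33.3 RPKM.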

How the data were processed

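RNA sequencing of 2 ISL1 and 2 blank-virus Huh7 libraries was analysed. The authors deposited 1 table per library of gene symbols and RPKM values, per the file headers, with no counts. Per the submitters' processing notes, the tools and build include CASAVA 1.4, BWA and hg19. How reads were assigned to genes is not given in the sources used here. Each table of replicate 1 listed 16640 genes, down to 0.0001 RPKM, and each of replicate 2 listed 17197, down to 0.

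Values were joined by symbol. The 11085 genes that all tables list and that reached 1 RPKM in 2 or more libraries were fitted together with limma 3.58.1 (R 4.3.3; eBayes with trend, no replicate block) on log2(RPKM + 1), two-sided, Benjamini-Hochberg adjusted over all of them, at a threshold of 0.05. The fit was tested on simulated data with a shift between replicates and little other noise: without the replicate block it gave the right signs but called none of the changed genes, and with the block it recovered them. A pair has 1 library of each group and gets no test. Depth was recovered because 97.5% (replicate 1) and 95.1% (replicate 2) of ratios between low values were ratios of whole numbers within 1e-07, against 1.94% and 1.83% with a wrong factor, and then from depths that make lengths whole, which 64 and 60 of 100 starting genes gave. Without reads, a count of 0 allowed up to 0.0808 to 0.102 RPKM in a transcript of 1 kb (3 reads). Intervals are exact binomial at 95%. Since the reads are known only up to a whole factor, no count model was run.

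Alternatives were 2 other pseudocounts, 2 other filters, 3 scalings, the replicate block, no trend and leaving out each library. Median-ratio scaling was done over 4 libraries for pooled values and within each pair for the differences of a pair. Named genes are the 10 targets and in each list up to 4 with the largest smaller absolute difference of the 2 pairs; other names were picked with their values known. The genes and lists were themselves chosen with earlier results of these data known. Scripts ran in Python 3.11.15 with pandas 2.3.3, SciPy 1.17.1, NumPy 2.4.6 and, for plots, matplotlib 3.10.9. A gene that the rule also names is not reported here.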

Additional observations from a re-analysis of the deposited data

How the results depend on the processing

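Leaving out 1 library moved the pooled log2 fold changes, none past the threshold, from -2.99 to 1.29 for CDKN1A, -1.63 to 0.59 for BTG2, -1.31 to 1.73 for GDF15, -2.64 to 3.95 for GADD45A, -1.43 to 3.36 for GADD45B, -0.74 to 1.44 for SESN1, -1.08 to 1.80 for TP53I3 and -0.24 to 0.61 for PLK3. No other alternative reversed a direction for these genes. With a pseudocount of 0.1 RPKM, 5 of the 9 genes were at least 2-fold higher in the second pair (3 with a pseudocount of 1) and 6 other p53 targets at least 2-fold lower in the first (3). With a pseudocount of 5 RPKM, 2 of the 9 were 2-fold lower in the first pair (4), because GADD45A and GADD45B are low there. A minimum of 5 RPKM in 2 libraries left 2 other targets 2-fold higher in the second pair (4), with fewer genes tested. CDKN1A made 1 gene 2-fold lower in the second pair with median-ratio scaling within each pair, and 1 with quantile normalization, against 0. Quantile normalization called 1 gene, which was not among the 9. Median-ratio scaling over 4 libraries moved the median of all genes in the second pair from 0.06 to -0.11.

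The replicate numbers share only a number in the labels. Deviations from the group means correlated between libraries of the same number (Pearson's r = 0.88 across genes). The paired fit with the replicate block called 0 genes (260 with an unadjusted p below 0.05, 15 without the block). CDKN1A had an unadjusted limma p of 0.0375 there and an adjusted p of 1.00.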
